A study of Homo sapiens with 6 samples.

Results

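The genes described here are AKAP12 and 9 other genes of the protein kinase A (PKA) scaffold, 10 of the 24872 rows of an expression table. They are 7 A-kinase anchoring proteins (AKAP12, AKAP1, AKAP8, AKAP9, AKAP10, AKAP11 and AKAP13) and 3 kinase subunits (PRKAR1A, PRKAR2A and PRKACA), found by gene symbol. AKAP12 was chosen by its own values, lower in OE and higher in mimics, so its levels and changes are given as a description with no test. The other 9 were chosen as relatives in the same machinery and were tested. All 10 passed the filter on low values, a mean of at least 0.5 FPKM (fragments scaled by transcript length and library size) over the libraries.

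RNA was sequenced from 22RV1, an established human prostate cancer line that grows without androgen, in 3 groups of 2 libraries taken on day 2. The OE group overexpressed the long noncoding RNA MAGI2-AS3, the mimics group was given the microRNA miR-106a-5p, and the NC group was the control, whose nature the labels do not describe. The labels speak of plasmids for both agents and of mimics in the titles, which leaves the delivery of the microRNA unclear. Both agents were given to cells of the same line in RPMI 1640 with serum, and nothing says that libraries of a group came from separate cultures, and the p-values below therefore cover only how far these libraries differ, perhaps for technical reasons.

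PKA is a tetramer in which a pair of regulatory subunits holds a pair of catalytic subunits inactive. Cyclic AMP, made by adenylyl cyclases and broken down by phosphodiesterases, releases the catalytic subunits. Anchoring proteins bind the regulatory subunits through an amphipathic helix and so fix the kinase at a membrane, an organelle or the nucleus. AKAP12, also called gravin or SSeCKS, holds PKA and protein kinase C near the plasma membrane and is often silenced in cancers, including those of the prostate.

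The sequence of miR-106a-5p is shown because it defines which messages the agent given to the mimics cells could pair with, and its seed (bases 2 to 8) is in capitals. It is encoded on chromosome X (RefSeq, GRCh38.p14, chrX:134170244-134170266, minus strand), and 7 other mature microRNAs in RefSeq carry the same seed, among them miR-17-5p and miR-20a-5p.
hsa-miR-106a-5p: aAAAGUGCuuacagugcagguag

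The complement of this seed, GCACTTT, was searched in the longest annotated 3′ UTR of each gene (GENCODE 29, GRCh38). No match was found in AKAP12, whose 3′ UTR of 2843 bases is longer than the median of 1339 bases over tested genes, nor in any of its 4 coding transcripts with a 3′ UTR. AKAP1, AKAP8, AKAP10 and PRKACA held none either. The other 5 genes held 6 matches, and 24.8% of 12222 tested genes held at least 1. This share is not matched for length. The 3′ UTRs of PRKAR2A, AKAP13, AKAP11 and PRKAR1A had 5006, 4681, 4039 and 2982 bases, above the median, and that of AKAP9 had 948. The matches in AKAP13 (chr15:85747610-85747639), AKAP11 (chr13:42321644-42321673) and PRKAR1A (chr17:68531847-68531876), all on the plus strand, are 3 of the 6 and are shown in capitals with their surroundings.
AKAP13: aggtgacatgtGCACTTTaaatgctctcat
AKAP11: tttctgtaaagGCACTTTgtggtttttcca
PRKAR1A: ctgtaatgtagGCACTTTtattttcattgt

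Of the 6 matches, that of AKAP13 was the only one followed by A, which makes the 8-base match found in 5.32% of tested genes. Not every coding transcript with a 3′ UTR held a match: those that did were 2 of 4 in AKAP13, 4 of 7 in PRKAR1A, 4 of 7 in AKAP9, 2 of 6 in PRKAR2A and the single one of AKAP11. A match is a description of letters and does not show that the microRNA binds there.

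Over the 6 libraries AKAP12 spanned a 4.02-fold range, against at most 1.63-fold for any of the other 9 genes. It lies on chromosome 6 (ENSG00000131016, chr6:151239999-151358557 of GRCh38, plus strand), and its exons overlap no other annotated gene. Its level was 8.30 and 7.66 FPKM in the OE libraries, 30.8 and 28.7 FPKM in the mimics libraries and 18.4 and 15.7 FPKM in the NC libraries. The 3 groups did not overlap, with OE lowest and mimics highest, and the libraries of a group lay within 0.22 of each other on the log2 scale. The means were 7.98 ± 0.449 FPKM in OE, 29.8 ± 1.51 in mimics and 17.1 ± 1.90 in NC (SD, n = 2 each). On the log2(FPKM + 0.5) scale, used for every change below, the change of AKAP12 was -1.05 in OE against NC, 0.79 in mimics against NC and -1.84 in OE against mimics.

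In linear terms, AKAP12 in OE was at 0.468 of its NC mean, and in mimics at 1.74 times that mean. Among 13998 tested rows its change ranked 48th from the lowest in OE against NC, 366th from the highest in mimics against NC and 32nd from the lowest in OE against mimics. The order of its groups is less rare than these ranks: 6.26% of tested rows had the 2 NC libraries above both OE libraries and below both mimics libraries. These comparisons share the NC libraries, so a high or low NC value moves both at once. Messages per cell and the share of cells that carry the message cannot be told apart in bulk RNA.

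The libraries held 402526 to 429262 FPKM in sum. Mitochondrially encoded genes made up 9.67% and 9.49% of it in OE, 6.23% and 0.533% in mimics and 9.14% and 8.29% in NC. With libraries rescaled without these genes the log2 change of AKAP12 was -1.05 in OE against NC, 0.69 in mimics against NC and -1.75 in OE against mimics. Without mimics replicate 2, the library at 0.533%, it was 0.84 in mimics against NC. All 10 luminal prostate markers were at 1 FPKM or more in every library, and their sum was 973 and 1028 FPKM in OE, 1450 and 1449 in mimics and 1154 and 1252 in NC. Of markers of cells in which AKAP12 is also known to be expressed, 6 endothelial genes summed to 0.0371 to 0.0947 FPKM and 8 fibroblast genes to 90.6 and 86.6 in OE, 179.6 and 108 in mimics and 89.6 and 86.0 in NC. Most of the fibroblast sum was LUM, and without it the sum was 3.18 and 3.32 FPKM in OE, 7.73 and 5.48 in mimics and 3.61 and 3.84 in NC. Fibroblast markers at 1 FPKM or more numbered 2 in each OE library, 4 and 3 in mimics and 2 in each NC library. DCN had 4.41 and 3.40 FPKM in mimics against 2.62 and 3.01 in NC, COL1A1 had 1.16 and 1.44 against 0.682 and 0.521, and COL3A1 had 2.02 and 0.514 against 0.192 and 0.2700, while PDGFRA, THY1 and COL1A2 were at or near 0. The fibroblast and luminal sums were thus highest in mimics, as AKAP12 was, and their part in its levels was not tested. The level of MAGI2-AS3 itself was not analysed here.

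**Figure D1:**
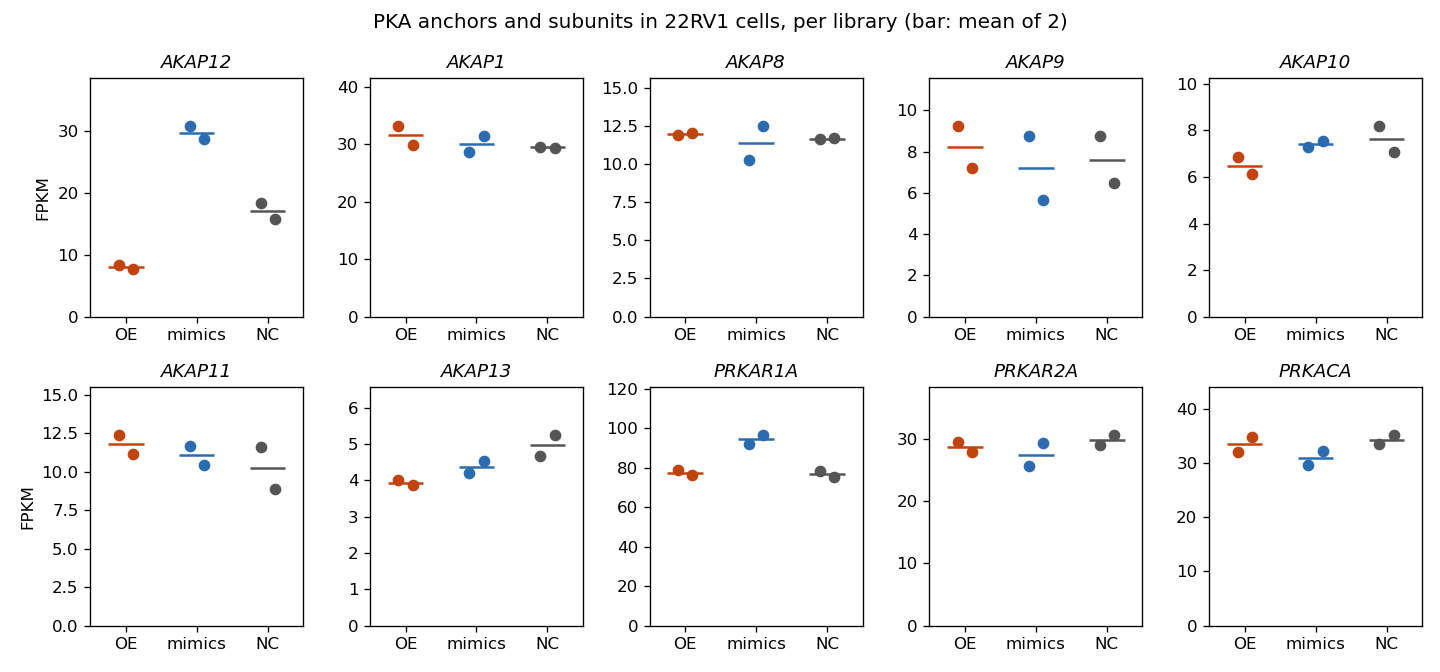
Level (FPKM, y axis from 0, own scale in each panel) of the 10 genes in each library of the OE, mimics and NC groups; points are libraries and bars are means of 2. AKAP12 forms 3 separate steps, PRKAR1A stands higher in mimics (92.0 and 96.5 FPKM), and the AKAP9 libraries are widely spread within every group.

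The place of AKAP12 among the anchoring proteins differed between groups. Because FPKM divides by length, levels can be compared between genes. In mimics AKAP12 was level with AKAP1, the anchor of the mitochondrial outer membrane, at ratios of 1.07 and 0.914, against 0.624 and 0.536 in the NC libraries. In OE the ratio was 0.2504 and 0.256. AKAP12 made up 9.67% and 9.82% of the summed FPKM of the 7 anchors in OE, 30.3% and 28.5% in mimics and 19.8% and 18.6% in NC. The sum of the other 6 anchors was 77.5 and 70.4 FPKM in OE, 70.9 and 72.1 in mimics and 74.4 and 68.7 in NC, and the groups overlapped.

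**Figure D2:**
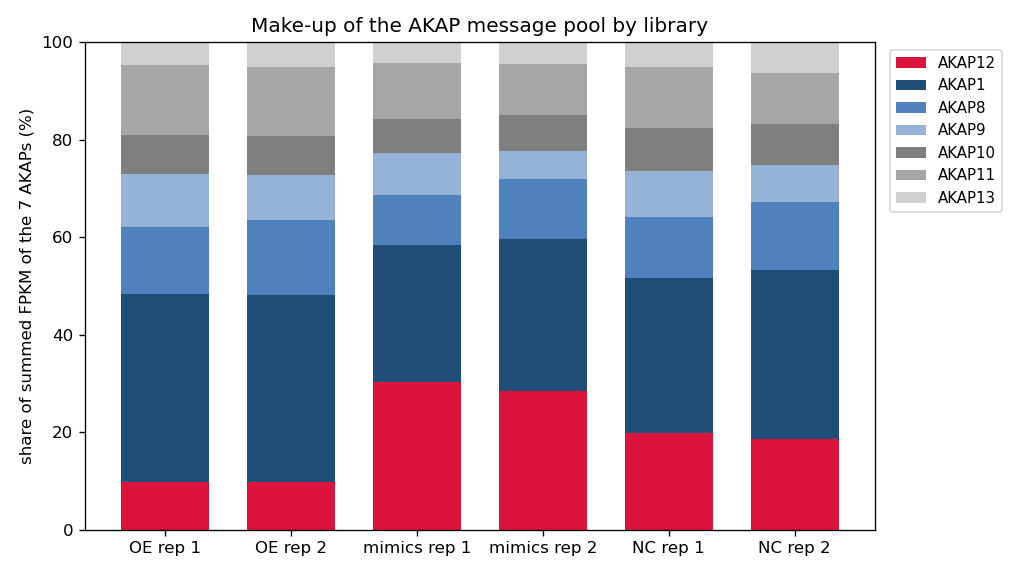
Share of each anchoring protein in the summed FPKM of the 7 AKAPs (y axis, percent) in each of the 6 libraries (x axis). The AKAP12 share lies between 9.67% and 9.82% in OE, between 28.5% and 30.3% in mimics and between 18.6% and 19.8% in NC, while AKAP1 is the largest or second largest block in every library.

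The order of the anchors in NC was AKAP1 (29.4 ± 0.128 FPKM), AKAP12, AKAP8 (11.7 ± 0.0245), AKAP11 (10.2 ± 1.95), AKAP10 (7.64 ± 0.781), AKAP9 (7.62 ± 1.62) and AKAP13 (4.97 ± 0.401; SD, n = 2 each). The NC libraries of AKAP11 (11.6 and 8.85 FPKM) came close to those of AKAP8 (both 11.7), and those of AKAP10 and AKAP9 overlapped. In OE, AKAP12 ranked 5th of the 7 anchors in replicate 1 and 4th in replicate 2, within the range of AKAP9 (9.24 and 7.22 FPKM). In mimics it ranked 1st in replicate 1 and 2nd in replicate 2, where AKAP1 had 28.7 and 31.4 FPKM.

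None of the 9 other genes passed limma's test in any of the 3 comparisons (adjusted p under 0.05, Benjamini-Hochberg over all tested rows). In OE against NC 0 of 9 passed and 0 had an unadjusted p under 0.05, where 0.257% of all tested rows were called (0.0143% higher, 0.243% lower). In mimics against NC 0 of 9 passed and 1 had an unadjusted p under 0.05, where 8.001% of rows were called (4.29% higher, 3.71% lower). In OE against mimics 0 of 9 passed and 1 had an unadjusted p under 0.05, where 7.84% were called (2.52% higher, 5.32% lower). With shares of calls this low, 0 of 9 is near what the whole table gives. Of the 13998 tested rows, 907 had an unadjusted p under 0.05 (limma) in OE against NC. In mimics against NC 3615 rows did, and in OE against mimics 3704, so 1 of 9 does not stand out. The median log2 change of the 9 was 0.01 in OE against NC, -0.04 in mimics against NC and 0.07 in OE against mimics, against -0.02, -0.00210 and -0.02 for all tested rows.

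The 95% confidence intervals limit how far these 9 could have moved, interval by interval and without adjustment. Over all 3 comparisons the widest bounds were those of AKAP9, from -0.60 in mimics against NC to 0.71 in OE against mimics, and the lower bound of AKAP13 in OE against NC, at -0.61. For PRKACA the bound farthest from 0 was -0.38, in mimics against NC. A missed threshold does not show that the levels were equal.

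**Figure D3:**
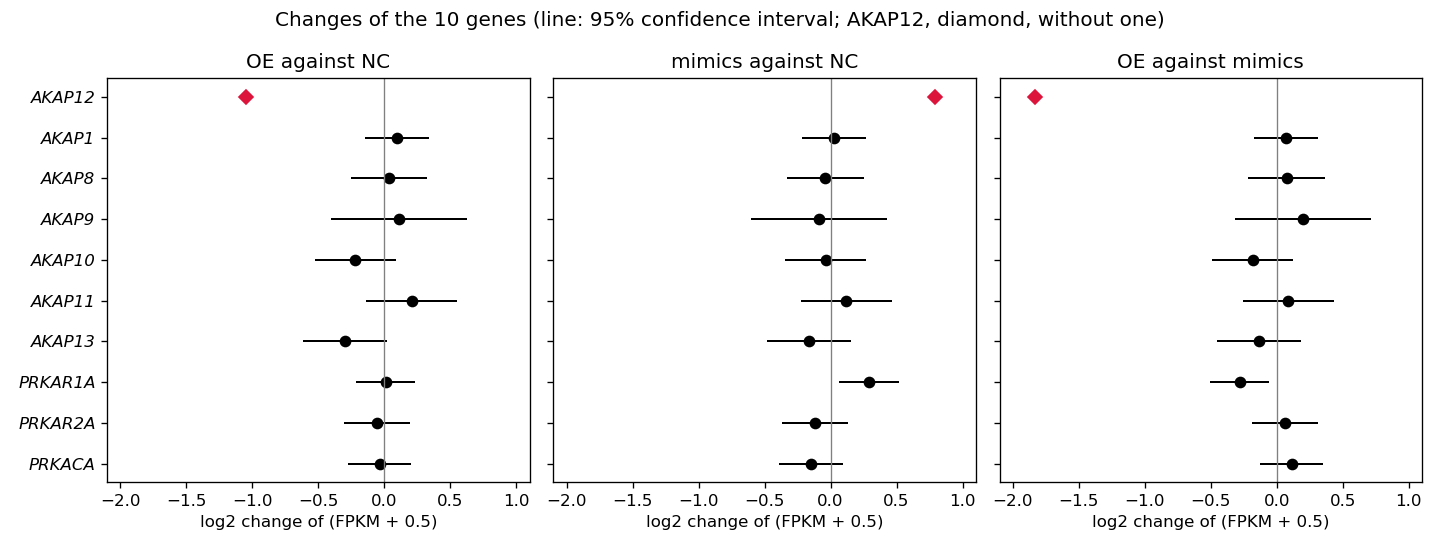
Log2 change of (FPKM + 0.5) of each gene (x axis) in OE against NC, mimics against NC and OE against mimics; lines are 95% confidence intervals from limma, and AKAP12 (diamond) is drawn without one. AKAP12 lies at -1.05, 0.79 and -1.84, while the estimates of the 9 other genes lie between -0.30 and 0.29.

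Among the organelle anchors, AKAP1 had 33.1 and 29.9 FPKM in OE, 28.7 and 31.4 in mimics and 29.5 and 29.3 in NC. Both OE libraries lay above NC, and the estimate was 0.10 on the log2 scale (95% confidence interval -0.14 to 0.33, limma adjusted p = 0.998). AKAP10, which binds both types of regulatory subunit, had 6.84 and 6.13 FPKM in OE, 7.28 and 7.57 in mimics and 8.19 and 7.09 in NC. Both its OE libraries lay under all 4 others, but the log2 change against NC was -0.22 (-0.52 to 0.08, limma adjusted p = 0.925). Non-overlap of this kind was common: 4 of the 9 genes showed it in OE against NC, where 41.9% of all tested rows did. It was shown by 3 of 9 in mimics against NC and by 3 of 9 in OE against mimics, where 52.9% and 55.7% of rows did.

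AKAP9, the large anchor of the Golgi and the centrosome, was the most variable of the 10 within groups. It had 9.24 and 7.22 FPKM in OE, 8.77 and 5.65 in mimics and 8.77 and 6.47 in NC. In each group replicate 1 was the higher library, and the coefficient of variation was 17.3% in OE, 30.6% in mimics and 21.3% in NC. Its log2 change in mimics against NC was -0.09 (-0.60 to 0.42, limma adjusted p = 0.839), and the estimate was above 0 without mimics replicate 2 and without NC replicate 1.

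AKAP11, which also carries protein phosphatase 1, had 12.4 and 11.2 FPKM in OE, 11.7 and 10.4 in mimics and 11.6 and 8.85 in NC, and all groups overlapped. AKAP8, a nuclear anchor linked to chromatin, had 11.9 and 12.04 FPKM in OE, 10.3 and 12.5 in mimics and 11.7 in both NC libraries. The mimics libraries enclosed all others, so AKAP8 differed more between the mimics replicates than between groups. Exons of AKAP1, AKAP8 and PRKAR2A lie antisense to another annotated gene, and the use of strand in counting is not given in the sources used here.

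AKAP13, an anchor that also activates the GTPase RhoA, was the least abundant of the 10. It had 4.01 and 3.88 FPKM in OE, 4.22 and 4.55 in mimics and 4.69 and 5.25 in NC. Both treated groups lay under both NC libraries, and OE lay under mimics. The log2 change was -0.30 in OE against NC (-0.61 to 0.01, limma adjusted p = 0.794) and -0.16 in mimics against NC (-0.48 to 0.15, limma adjusted p = 0.497). AKAP13 carries the 8-base seed match printed above, and its exons overlap MIR7706 on the same strand and 4 antisense genes.

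The regulatory subunits outnumbered the catalytic ones in message. PRKAR1A, the type I-alpha regulatory subunit, was the most abundant of the 10 genes. It had 78.8 and 76.0 FPKM in OE, 92.0 and 96.5 in mimics and 78.4 and 75.3 in NC. Both mimics libraries lay above all 4 others, and OE and NC overlapped. The log2 change in mimics against NC was 0.29 (SE 0.10, 95% confidence interval 0.07 to 0.51, limma unadjusted p = 0.0144, adjusted p = 0.0972, 0.0413 to 0.328 over 16 alternative settings). In OE against mimics it was -0.28 (-0.4999 to -0.06, limma unadjusted p = 0.01698, adjusted p = 0.105). PRKAR1A passed under quantile normalization (limma adjusted p = 0.0413), so it is at the edge of the test. Its exons overlap AC007780.1 on the same strand.

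PRKAR2A, the type II-alpha regulatory subunit that most AKAPs bind, had 29.5 and 27.9 FPKM in OE, 25.7 and 29.3 in mimics and 29.03 and 30.7 in NC. The groups overlapped in every comparison, and its log2 change in mimics against NC was -0.12 (-0.36 to 0.12, limma adjusted p = 0.525). PRKACA, the main catalytic subunit, had 32.2 and 34.97 FPKM in OE, 29.7 and 32.3 in mimics and 33.6 and 35.3 in NC. Both mimics libraries lay under both NC libraries, with a log2 change of -0.15 (-0.38 to 0.08, limma adjusted p = 0.397).

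Summed over 4 regulatory genes (PRKAR1A, PRKAR1B, PRKAR2A and PRKAR2B) and 2 catalytic genes (PRKACA and PRKACB), the ratio of regulatory to catalytic message was 3.40 and 3.07 in OE, 3.96 and 3.76 in mimics and 3.30 and 3.17 in NC. The mimics libraries lay above all 4 others. PRKAR1A made up 62.9% and 63.1% of regulatory message in OE, 66.7% and 68.3% in mimics and 62.7% and 60.7% in NC. PRKACA made up at least 85.2% of the 2 catalytic genes in each of the 6 libraries. These ratios rest on the levels given above and were not tested apart from them.

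The promoters of the 10 genes were searched for the cyclic AMP response element, TGACGTCA, the site of CREB, which PKA activates. RefSeq gives 21 promoter windows for the 10 genes (GRCh38.p14, 300 bases around a start). The full element was in 2 of the 21, both overlapping windows of PRKAR1A that cover a single element, and in 1.85% of 35116 windows in RefSeq. It is shown, in capitals, at chr17:68512370-68512399 on the plus strand, since PRKAR1A was the gene nearest to the threshold.
PRKAR1A promoter: gcgaggcgcatTGACGTCAgtagccgaacg

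The core of the element, TGACG on either strand, which the full element contains, was in 12 of the 21 windows and in 24.6% of all windows. Of the 12, 3 were windows of AKAP1 and 4 of PRKAR1A. Windows of these genes partly overlap, so the 12 are not separate finds. None of the 3 AKAP12 windows held the core, which says only that these letters are not in those windows. Which of the 3 AKAP12 starts was used cannot be read from gene-level FPKM.

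The rest of the pathway was read from 9 lists of 93 genes, of which 67 passed the filter on low values. In OE against NC 0 of 67 passed (limma, 6 at an unadjusted p under 0.05). In mimics against NC 3 were higher and 4 lower, 10.4% of the 67 against 8.001% of all tested rows. In OE against mimics 3 were higher and 6 lower, 13.4% against 7.84%. The median log2 change over the 67 was -0.03 in OE against NC, 0.07 in mimics against NC and -0.09 in OE against mimics. The split of calls over the whole table depends on scaling: 600 rows were higher and 520 lower in mimics against NC, but 405 higher and 795 lower when libraries were scaled without mitochondrially encoded genes, and in OE against mimics 353 higher and 745 lower became 557 and 509.

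No other anchoring protein passed the test. Of 10 other AKAPs 5 passed the filter, and of 13 further PKA-binding proteins 10 did. None of these 15 passed in any comparison (0 of 15 by limma, with at most 2 at an unadjusted p under 0.05 in a comparison). Of all tested rows 0.257% were called in OE against NC, 8.001% in mimics against NC and 7.84% in OE against mimics. Against shares this low, 0 of 15 is near what the whole table gives. An unadjusted p under 0.05 (limma) was reached by 907 of the 13998 rows in OE against NC. It was reached by 3615 in mimics against NC and by 3704 in OE against mimics. The most abundant anchor of the 15 was EZR, ezrin, at 50.1 and 50.6 FPKM in OE, 58.1 and 56.8 in mimics and 55.5 and 60.9 in NC. AKAP4, AKAP14 and SPHKAP were listed at 0 in all 6 libraries.

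The other PKA genes also stayed under the threshold. PRKAR2B, the type II-beta regulatory subunit, had 16.4 and 16.1 FPKM in OE, 20.2 and 15.3 in mimics and 17.4 and 17.7 in NC. PRKACB, the second catalytic subunit, had 4.61 and 4.31 FPKM in OE, 5.17 and 5.24 in mimics and 4.38 and 3.92 in NC, with mimics above NC (log2 change 0.297, limma adjusted p = 0.209). PRKX, a related kinase, was at 5.62 to 6.32 FPKM in all 6 libraries. PRKAR1B stayed under the filter at 0.16 to 0.54 FPKM. Of the peptide inhibitors of the catalytic subunit, PKIB had 9.14 and 7.47 FPKM in OE, 12.5 and 8.84 in mimics and 6.69 and 7.36 in NC (0.55 in mimics against NC, limma adjusted p = 0.0908), PKIG was at 8.67 to 12.7 FPKM, and PKIA was at or near 0.

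Among genes that make and remove cyclic AMP, GNAS and PDE3B passed. GNAS was 1 of 8 tested synthesis genes (12.5%), called in mimics against NC. PDE3B was 1 of 7 tested breakdown genes (14.3%), called in mimics against NC and in OE against mimics. Of all tested rows 8.001% and 7.84% were called in these 2 comparisons, so single calls are near what the whole table gives. GNAS, the stimulatory G protein subunit, had 336 and 349.6 FPKM in mimics and 234 and 264 in NC (log2 change 0.46, limma adjusted p = 0.0463, 0.0344 to 0.273 over the alternatives). This call was lost under 9 of 16 alternatives, among them without either NC library or either OE library (0.116 to 0.273). GNAS overlaps antisense genes. PDE3B, a phosphodiesterase, fell to 5.87 and 5.43 FPKM in mimics, against 10.7 and 9.24 in NC (-0.76, limma adjusted p = 0.0113), and was higher in OE (9.31 and 8.83 FPKM) than in mimics (0.64, limma adjusted p = 0.0206). The first PDE3B call was lost without either NC library. The second was lost without a filter (limma adjusted p = 0.0631) and without either OE library.

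Of 8 CREB-type factors and coactivators, ATF1, a close relative of CREB, passed in mimics against NC and in OE against mimics. That is 12.5% of the 8 in each, against 8.001% and 7.84% of all tested rows, so it is near what the whole table gives. ATF1 fell to 15.1 and 16.0 FPKM in mimics, against 21.8 and 21.7 in NC (-0.47, limma adjusted p = 0.0264). It was higher in OE, at 25.5 and 24.03 FPKM, than in mimics (0.65, limma adjusted p = 0.00882). CREB1 had 11.001 and 9.36 FPKM in OE, 8.31 and 8.17 in mimics and 11.5 and 7.98 in NC, with no call. The ATF1 call in mimics against NC was lost under 7 of 16 alternatives. These were no filter, no intensity trend and only the 4 libraries compared (limma adjusted p = 0.0544, 0.0545 and 0.0718), and leaving out either NC or either OE library. In OE against mimics the ATF1 call was lost without either OE library.

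The 11 genes that CREB is known to activate gave the most calls, all but 2 of them in OE against mimics. There 0 were higher and 5 lower, 45.5% of the 11 where 7.84% of all tested rows were called, with a median log2 change of -0.63. This list, like the others, was chosen with earlier results of these data known, so its share is a description. DUSP1, a phosphatase of MAP kinases, had 6.44 and 6.64 FPKM in OE, 14.7 and 14.3 in mimics and 7.65 and 7.64 in NC. It was lower in OE than in mimics (-1.09, limma adjusted p = 0.00170, 0.000984 to 0.0287 over the alternatives) and higher in mimics than in NC (0.88, adjusted p = 0.00420, but 0.0595 without NC replicate 1). NR4A1, an orphan nuclear receptor, had 5.53 and 6.40 FPKM in OE and 10.5 and 10.2 in mimics (-0.75, limma adjusted p = 0.0114). FOS and JUNB, subunits of AP-1, and the clock gene PER1 were also lower in OE than in mimics (-0.80, -0.78 and -0.52, limma adjusted p = 0.0252, 0.0166 and 0.0294). FOS had 6.52 and 7.48 FPKM in OE and 14.7 and 10.7 in mimics. JUNB had 26.9 and 27.3 FPKM in OE and 55.2 and 39.9 in mimics. JUNB and NR4A1 lie antisense to another gene and PER1 shares exons with AC129492.3, so their assignment is uncertain.

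In OE against NC none of the 11 passed (0 by limma, 4 at an unadjusted p under 0.05). There 9 of 11 estimates were below 0, with a median of -0.32. Of all 13998 tested rows, 907 had an unadjusted p under 0.05 in that comparison and 7758 had an estimate below 0. In mimics against NC 9 of 11 estimates were above 0, where 6963 of all 13998 tested rows were. The median of the 11 was 0.32, and DUSP1 was the only one called higher. The 2 with estimates below 0 were FOSB and EGR1. FOSB, another AP-1 subunit, was lower, at 0.985 and 0.710 FPKM in mimics against 1.68 and 1.83 in NC (-0.75, limma adjusted p = 0.0446). EGR1, which was not called, had 25.9 and 7.37 FPKM in mimics against 31.2 and 34.1 in NC. Without OE replicate 1 or 2 the calls of NR4A1, FOS, JUNB and PER1 were lost. Without a filter those of FOS, JUNB and PER1 were lost (limma adjusted p = 0.0956, 0.0778 and 0.0603). The FOS and PER1 calls were also lost without either NC library and with only the 4 libraries compared (limma adjusted p = 0.0506 and 0.0643). That of PER1 was lost as well with libraries rescaled without mitochondrially encoded genes (-0.43, limma adjusted p = 0.0605). The FOSB call was lost under 8 of 15 alternatives, among them no filter (limma adjusted p = 0.105) and leaving out either NC or either OE library. These are also genes that many growth signals induce, so the list does not read PKA alone.

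**Figure D4:**
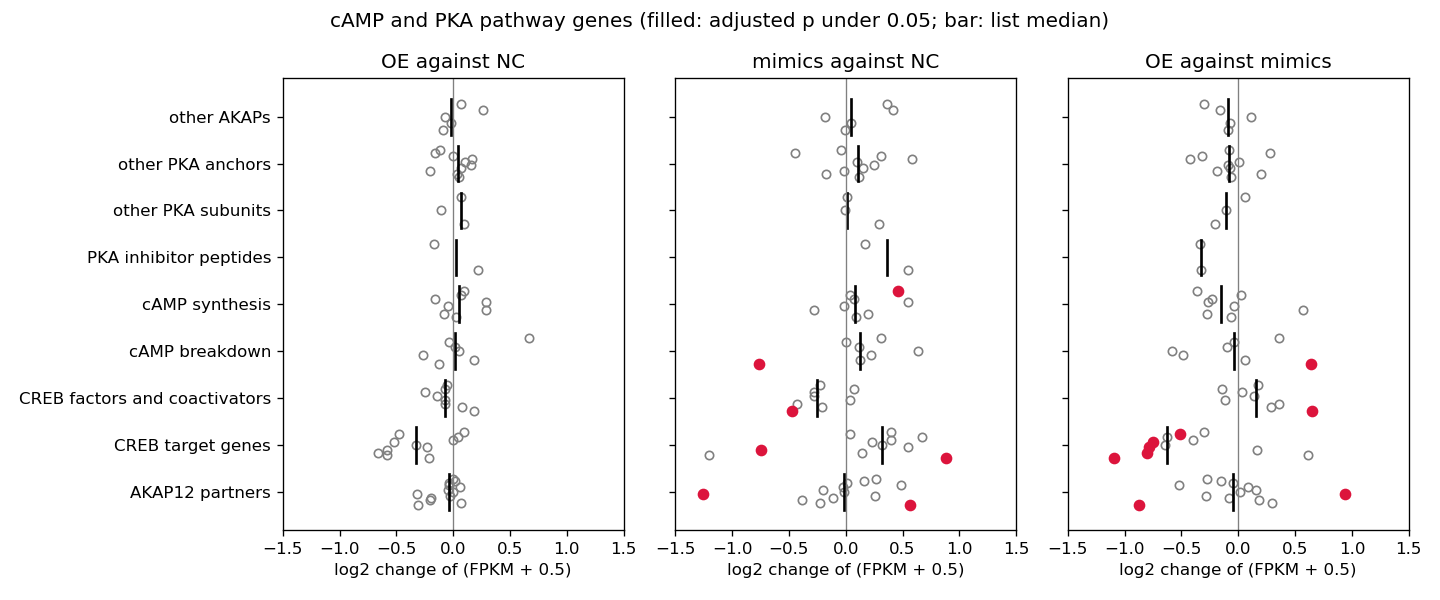
Log2 change of (FPKM + 0.5) (x axis) of the tested genes of 9 pathway lists (rows) in OE against NC, mimics against NC and OE against mimics; filled points passed limma at an adjusted p under 0.05 and bars are list medians. No point is filled in OE against NC, and the bar of CREB target genes stands at -0.63 in OE against mimics.

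Of 13 tested partners of AKAP12, 2 passed in mimics against NC and 2 in OE against mimics, and PLK1 was among them in both. That is 15.4% of the 13 in each, against 8.001% and 7.84% of all tested rows. PLK1, a mitotic kinase antisense to ERN2, had 54.4 and 58.7 FPKM in OE, 26.0 and 33.03 in mimics and 67.7 and 73.7 in NC. It fell in mimics against NC (-1.25, limma adjusted p = 0.00209) and was higher in OE than in mimics (0.94, adjusted p = 0.00569, but 0.0525 without OE replicate 2). PRKCA, PRKCD and SRC, kinases that AKAP12 binds, were not called in any comparison, with PRKCD at 40.9 and 41.6 FPKM in OE, 48.4 and 73.3 in mimics and 39.6 and 45.1 in NC.

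The 5 annotated genes with the profile nearest to AKAP12 were FSBP, PTPRH, DMKN, RAB31 and BNIP3L. They were found as the smallest Euclidean distances in log2(FPKM + 0.5), centred on each gene's mean, over 6 libraries and 12350 rows. The distances were 0.412, 0.538, 0.548, 0.596 and 0.607, and Pearson's r with AKAP12 over the 6 libraries was 0.9896, 0.9751, 0.969, 0.952 and 0.947. With 3 groups of 2 such values are easily reached: 137 rows had an r of at least 0.95. FSBP, at 0.536 and 0.417 FPKM in OE, 2.46 and 1.94 in mimics and 1.55 and 1.07 in NC, shares exons with RAD54B, so its assignment is uncertain. RAB31, the GTPase named in the series title, had 0.980 and 0.986 FPKM in OE, 4.82 and 5.18 in mimics and 1.85 and 1.597 in NC. BNIP3L, a mitophagy receptor, had 18.3 and 17.3 FPKM in OE, 64.7 and 43.7 in mimics and 26.9 and 25.5 in NC.

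**Figure D5:**
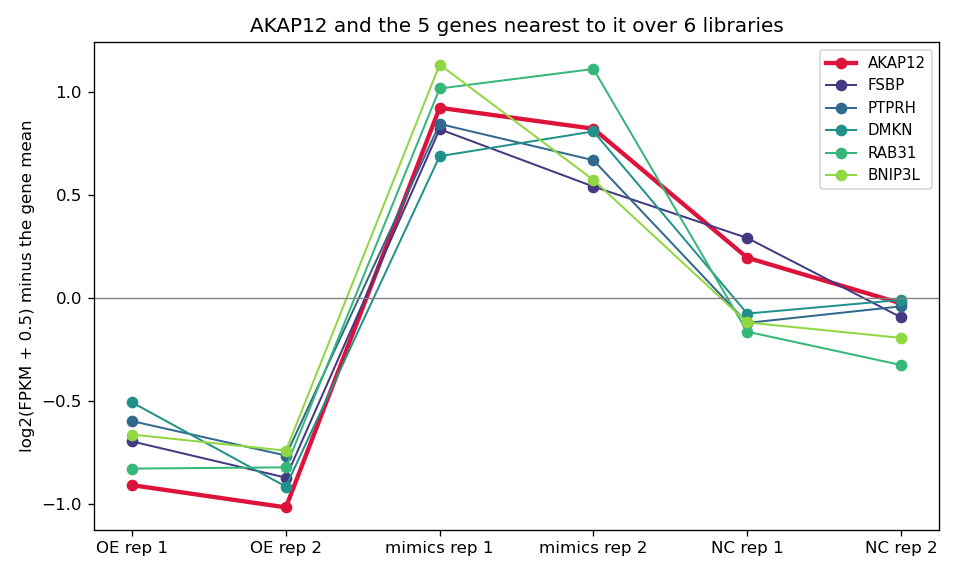
Centred log2(FPKM + 0.5) (y axis) of AKAP12 and the 5 nearest genes in the 6 libraries (x axis); lines only join the points of a gene. All 6 genes are lowest in OE and highest in mimics, which is how the 5 were chosen.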

How the data were processed

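The deposited values are FPKM, made by the authors, with 1 column per library, and the submitters' processing notes list HISAT2 2.0.4 and GRCh38. Which counter, annotation and strand setting made them is not given in the sources used here. Depth is unknown: FPKM times length was a whole multiple of the best common step (within 0.02 of a whole number) in only 20.6% to 28.6% of low values of 940 single-exon genes, so whole fragments were not recovered, and precision is the spread between replicates. Gene length and library total are divided out, so a change in abundant messages shifts all others.

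The test was limma (version 3.58.1, R 4.3.3) with an intensity trend, fitted to log2(FPKM + 0.5) of the 13998 rows that averaged 0.5 FPKM or more. All 6 libraries shared a single estimate of the spread (3 residual and 5.67 prior degrees of freedom). Tests were two-sided, with Benjamini-Hochberg adjustment and a threshold of 0.05. In simulated data with independent noise between libraries, the fit called most but not all of the changes put in. An absent call therefore does not show that a level was unchanged. With 2 libraries a group, the smallest p of an exact permutation test is 0.333. The genes, lists and tests were chosen with earlier results of these data known. Named beside the 10 genes are list genes that passed (up to 10 per comparison), the other PKA subunits and inhibitors, and the 5 genes nearest to AKAP12; EZR, the genes at 0, CREB1, EGR1, PRKCA, PRKCD and SRC were named after their values were seen. Alternatives were the pseudocount, filter, scaling, trend, libraries fitted and a replicate block. Sequences are from RefSeq (GRCh38.p14) and GENCODE 29. A gene of the partner list and some sequences are not reported here.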

Additional observations from a re-analysis of the deposited data

How the results depend on the processing

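AKAP12 was at -1.16 to -0.94 in OE against NC over the 16 alternatives. It was at 0.68 to 0.898 in mimics against NC and at -1.89 to -1.75 in OE against mimics. AKAP12 was chosen for this direction and its groups did not overlap, so leaving out a library could not reverse that direction. Changing the filter, the trend or the block leaves its estimate as it is, so these ranges are a description. The 9 other genes gave 0 calls in every comparison under every alternative except quantile normalization, which called 1 (PRKAR1A) in mimics against NC, and 0 without any 1 library. Rows called numbered 36 in OE against NC, 1120 in mimics against NC and 1098 in OE against mimics. Without a filter limma called 0 (1334 with p under 0.05 before adjustment), 347 and 325; fitted on the 4 libraries of a comparison alone it called 119, 601 and 641, and leaving out 1 library 5 to 120, 66 to 3027 and 136 to 2774. Pathway list genes called were 0, 7 and 9; without a filter 0, 3 and 5, with only 4 libraries 1, 3 and 7, and leaving out 1 library 0 to 1, 1 to 18 and 1 to 18. In mimics against NC and in OE against mimics the highest of these leave-out counts came without mimics replicate 2. That is the library with 0.533% mitochondrially encoded FPKM. Leaving out a library leaves fewer samples and another spread, and other causes were not tested. With a replicate block 9 rows were called in OE against NC, 938 in mimics against NC and 938 in OE against mimics. None of these rows were among the 9 genes. The labels do not say whether same-numbered libraries share a culture or a batch. Their deviations correlated at 0.15 for OE and NC, -0.03 for mimics and NC and 0.02 for OE and mimics, which cannot settle it. The FOS and FOSB calls were lost under the block. Members with a seed match fell to 1 of 10 with 8 bases, from 5.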
